A study of Mus musculus with 8 samples.

Results

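Of 38281 merged regions of accessible chromatin in the day 5 (D5) peak list, 16776 (43.8%) overlapped no region of either day 7 (D7) list, and these are the regions found only at day 5. Members were chosen by that overlap alone: peaks overlapping each other within a list were merged, chromosomes 1 to 19 were kept, and a D5 region became a member when it shared 0 bases with the D7 control list and 0 bases with the D7 GLI1 list. The assay was ATAC-seq, which reads open DNA through adapters inserted by the Tn5 transposase, and the cells were cardiac progenitors differentiated in culture from mouse embryonic stem cells (line GLI1-FTA, strain A2Lox.cre). The 2 D5 control libraries were harvested untreated on day 5. The 3 D7 control libraries were harvested untreated on day 7, and the 3 D7 GLI1 OE libraries received 500 ng/ml doxycycline for 48 hours, from day 5 to day 7, to overexpress the Hedgehog transcription factor GLI1. All 3 groups carry the same line, so D5 cells are uninduced GLI1-FTA cells and not the parental stem cells. Each group is represented by 1 peak list that pools its libraries, so no difference between lists has a replicate check and no p-value is given.

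During cardiac differentiation, pluripotent cells pass through a primitive streak-like state governed by T-box and homeobox factors such as T, Eomes, Mixl1 and Gsc, and then through cardiac mesoderm marked by Mesp1 and Kdr. Cardiac progenitors follow, which use Gata4, Nkx2-5, Isl1, Tbx5 and Hand2, and contractile genes such as Ttn and Ryr2 come into use as they mature. Accessible regions far from gene starts often hold enhancers, whereas promoters rich in CG dinucleotides tend to be open in most cell types.

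The D5 and D7 lists differ in their background reads and in how their peaks were called, which touches every value below. The peak caller's genome background was 0.376 reads per base at D5, against 4.56 (D7 control) and 4.70 (D7 GLI1), which is 12.1 and 12.5 times as much. A D5 peak could rest on as few as 4 reads at its summit, and a D7 peak on no fewer than 13. Peak numbers in the D7 lists skip 978 and 1071 values, while the D5 numbers skip none. The skips place peaks that were removed after calling between the neighbours that were kept. Names of both D7 lists carry the tag rmBLchrM, and the D5 name does not. The tag reads as removal of blacklisted regions and of chrM, which is an inference. A D5 region lying between 2 such neighbours could not be matched by a removed D7 peak. No kept peak of that list lies there either, so a D5 region between skipped numbers of both lists is a member by construction. Of the members, 1311 (7.81%, Wilson 95% interval 7.42 to 8.23) lie there, 936 of them in both D7 lists, and 15465 lie outside. Counts and shares below are over all members unless they are said to be outside or between skipped numbers, and the part of those members in the results was not tested.

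A few sequences show what kind of DNA the members hold at genes of early development. The first is the Mir302-Mir367 cluster, whose microRNAs are characteristic of pluripotent and early embryonic cells. A member of 578 bp at chr3:127544673-127545250 (mm10), with fold 9.66 and 24 reads at its summit, lies inside the Larp7 gene interval. It ends 23 bases into the first hairpin of the cluster, Mir302b, and the 5 hairpins (Mir302b, Mir302c, Mir302a, Mir302d and Mir367) span chr3:127545228-127545807 on the plus strand. The nearest D7 region is 6.88 kb away, and the member does not lie between skipped numbers. The mature 3p sequences from RefSeq (GRCm38.p6, which has mm10 coordinates) are printed with the seed, bases 2 to 8, in capitals:
miR-302b-3p: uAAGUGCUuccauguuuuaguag
miR-302d-3p: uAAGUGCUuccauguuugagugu
miR-302c-3p: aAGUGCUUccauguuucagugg
miR-367-3p: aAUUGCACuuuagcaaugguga
The 3p form of Mir302a is not in the RefSeq set used here, so it is not printed. The 302b and 302d forms share 1 seed. The 302c form is annotated 1 base further in, so its seed holds the next frame of the same letters, and miR-367-3p has a seed of its own. Among 919 hairpins on chromosomes 1 to 19, 191 had a D5 region within 2 kb and 45 had a member there, 40 of them with a member outside skipped numbers. Over all D5 regions the share of members was 43.8%. The hairpin counts are not shares of regions, since neighbouring hairpins can have the same region. This cluster was singled out after the neighbours of all hairpins had been listed.

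Promoters of 4 genes from the developmental lists show members next to or across a gene start. The 250 bases before each RefSeq start (mm10) are printed 5′ to 3′ on the strand of the gene, with the bases covered by the member in capitals:
Zfp42: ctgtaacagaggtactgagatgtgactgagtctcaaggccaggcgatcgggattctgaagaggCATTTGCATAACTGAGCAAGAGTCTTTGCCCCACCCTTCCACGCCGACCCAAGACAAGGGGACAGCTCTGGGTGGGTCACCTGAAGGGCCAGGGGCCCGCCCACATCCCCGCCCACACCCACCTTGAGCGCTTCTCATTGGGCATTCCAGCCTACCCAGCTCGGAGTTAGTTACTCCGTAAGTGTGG
Evx1: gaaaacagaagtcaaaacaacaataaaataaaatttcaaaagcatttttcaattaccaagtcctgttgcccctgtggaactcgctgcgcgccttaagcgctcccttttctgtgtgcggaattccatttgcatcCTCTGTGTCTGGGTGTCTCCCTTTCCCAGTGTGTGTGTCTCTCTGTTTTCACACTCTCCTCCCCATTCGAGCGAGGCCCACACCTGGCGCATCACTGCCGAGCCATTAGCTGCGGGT
Tek: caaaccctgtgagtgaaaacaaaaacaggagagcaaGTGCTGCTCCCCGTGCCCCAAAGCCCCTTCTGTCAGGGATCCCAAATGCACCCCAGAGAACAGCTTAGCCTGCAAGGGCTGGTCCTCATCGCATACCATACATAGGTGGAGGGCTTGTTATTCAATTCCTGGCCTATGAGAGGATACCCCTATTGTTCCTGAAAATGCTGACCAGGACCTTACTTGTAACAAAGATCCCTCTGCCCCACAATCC
Nppb: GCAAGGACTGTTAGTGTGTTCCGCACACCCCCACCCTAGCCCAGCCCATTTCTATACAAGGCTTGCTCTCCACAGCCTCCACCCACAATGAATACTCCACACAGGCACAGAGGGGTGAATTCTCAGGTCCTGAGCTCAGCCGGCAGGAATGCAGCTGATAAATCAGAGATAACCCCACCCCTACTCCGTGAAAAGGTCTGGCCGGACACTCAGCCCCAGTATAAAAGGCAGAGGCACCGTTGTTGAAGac
The windows are chr8:43307010-43307259 (minus strand) for Zfp42, chr6:52313248-52313497 (plus) for Evx1, chr4:94739039-94739288 (plus) for Tek and chr4:147985650-147985899 (plus) for Nppb. Zfp42 encodes the pluripotency marker REX1. Its member had fold 11.9 and 16 reads over a background of 0.434, and 187 of the 250 printed bases lie in it. They include a match to the octamer ATGCAAAT, the binding sequence of POU factors such as OCT4, on the opposite strand 186 bases before the start. Evx1, a homeobox gene of the primitive streak, had a weaker member (fold 5.07, 12 reads), and its octamer match lies 126 bases before the start, just outside the member. Tek encodes an angiopoietin receptor of endothelial cells, and its promoter member had fold 5.99 and 9 reads. Nppb encodes a natriuretic peptide of cardiac muscle, and its member had fold 8.09 and 13 reads, with a match to AGATAA, a form of the GATA factor site, 84 bases before the start and a TATAAA match 31 bases before it. These 4 were picked as examples after their values were seen. Outside skipped numbers, promoter windows of Acta2, Cdx2, Fgf4 and Myh7 from the lists were also overlapped by a member. A match is a description of letters only.

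For contrast, the promoter of Eef2, which encodes an elongation factor used by every cell, is also covered by a member, but that member lies between skipped D7 numbers. Its 250 bases at chr10:81176381-81176630 (plus strand), all within the member, are:
Eef2: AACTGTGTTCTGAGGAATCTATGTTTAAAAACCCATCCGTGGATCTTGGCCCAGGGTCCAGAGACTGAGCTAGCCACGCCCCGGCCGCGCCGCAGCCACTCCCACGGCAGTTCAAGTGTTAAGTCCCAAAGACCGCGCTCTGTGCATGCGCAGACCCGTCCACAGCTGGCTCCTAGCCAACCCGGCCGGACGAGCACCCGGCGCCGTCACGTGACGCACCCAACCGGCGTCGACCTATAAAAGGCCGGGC
This stretch holds 23 CG dinucleotides, against 9 before Zfp42, 10 before Evx1, 5 before Nppb and 2 before Tek. The Eef2 member had fold 11.7 and 47 reads.

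Promoter windows of 300 bases (250 before to 50 after a start) were used for 16457 of the 20665 genes, with none on chromosome 18. They were overlapped by 482 of the 16167 members on the other chromosomes, 245 between skipped numbers and 237 outside. That is 2.98% of members, and 1.59% of members outside skipped numbers, against 48.8% of D5 regions in all 3 lists. For regions shared with D7 control alone it was 4.11%, and with GLI1 alone 7.75%. The 237 outside were weaker, with a median fold of 5.09 and 8 reads at the summit, against 9.78 and 25 reads for the 245. Windows touched only by members outside skipped numbers (248 windows) had a median of 7 CG dinucleotides, and 60.9% had fewer than 10. Windows touched only by members between skipped numbers (286) had a median of 21, and windows of D5 regions found in all 3 lists (10111) had 23, with 11.2% and 6.54% of windows below 10. Over all 20085 windows the median was 14, and 42.1% held fewer than 10.

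Motif matches on either strand were counted in the same windows. The octamer ATGCAAAT was in 4.44% of windows of members outside skipped numbers (11 of 248, Wilson 95% interval 2.49 to 7.77), in 1.39% of windows found in all 3 lists and in 1.67% of all windows. AGATAA was in 12.9%, 4.38% and 9.57% of these windows respectively, and the AP-1 sequence TGANTCA in 13.3%, 3.55% and 7.06%. The T-box half-site AGGTGTGA was in 2.82% (7 of 248), 0.504% and 1.17%. CCGCCC, the GC box of SP factors, ran the other way, in 39.1% against 72.6% and 47.0%. Other motifs differed less or had few matches. CCAAT was in 40.7% of windows of members outside skipped numbers and 38.1% of all windows, the E-box CACGTG in 7.66% and 7.89%, the forkhead sequence TGTTTAC in 3.63% and 3.04%, and TATAAA in 8.87% and 12.7%. The YY1 motif was in 0 of 248, which allows up to 1.53% (Wilson), and in 0.896% of all windows. Windows of members between skipped numbers were close to those of all 3 lists for CCGCCC (70.6%), AGATAA (3.85%) and TGANTCA (3.15%). TGANTCA reads the same on both strands except for its middle base. CG content differs between these window sets, so the shares are not independent of base composition.

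Among the genes with a promoter window, the members outside skipped numbers with the highest −log10 q were at Zfp42, Mybpc1 (fold 10.6, 17 reads), Apbb1 (9.83, 17 reads), Cntnap3 (9.94, 14 reads) and Aldh1a1 (9.51, 15 reads), which encodes an enzyme of retinoic acid synthesis. Next came Vrtn, with fold 7.86 and 21 reads. Between skipped numbers, among the same genes, they were at Atp5g1 of ATP synthase (fold 17.3, 67 reads), the carboxylase subunit Pcca (18.5, 63 reads), the centromere chaperone Hjurp (14.7, 68 reads), the nuclear exportin Xpo1 (11.1, 82 reads) and the mitochondrial thioredoxin Txn2 (16.7, 61 reads).

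For counts at genes, a region belongs to the protein-coding gene that holds its summit or, failing that, to the nearest one within 100 kb. By this assignment 33652 D5 regions had a gene, and 13156 of them (39.1%) were found only at day 5. Outside skipped numbers the share was 37.1%. Shares of gene lists are read against 39.1%, and those outside skipped numbers against 37.1%. These backgrounds are not matched for gene length or for distance to a gene end. The intervals cover counting error only, and regions at 1 gene are not independent of each other. Among the 13 lists, 9 had a share above 39.1%. Lists can share genes, as Kdr stands in both the streak and the endothelial list. The median over all genes with a D5 region was a day-5-only share of 0%, since 6414 of 14410 such genes had any member.

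**Figure D1:**
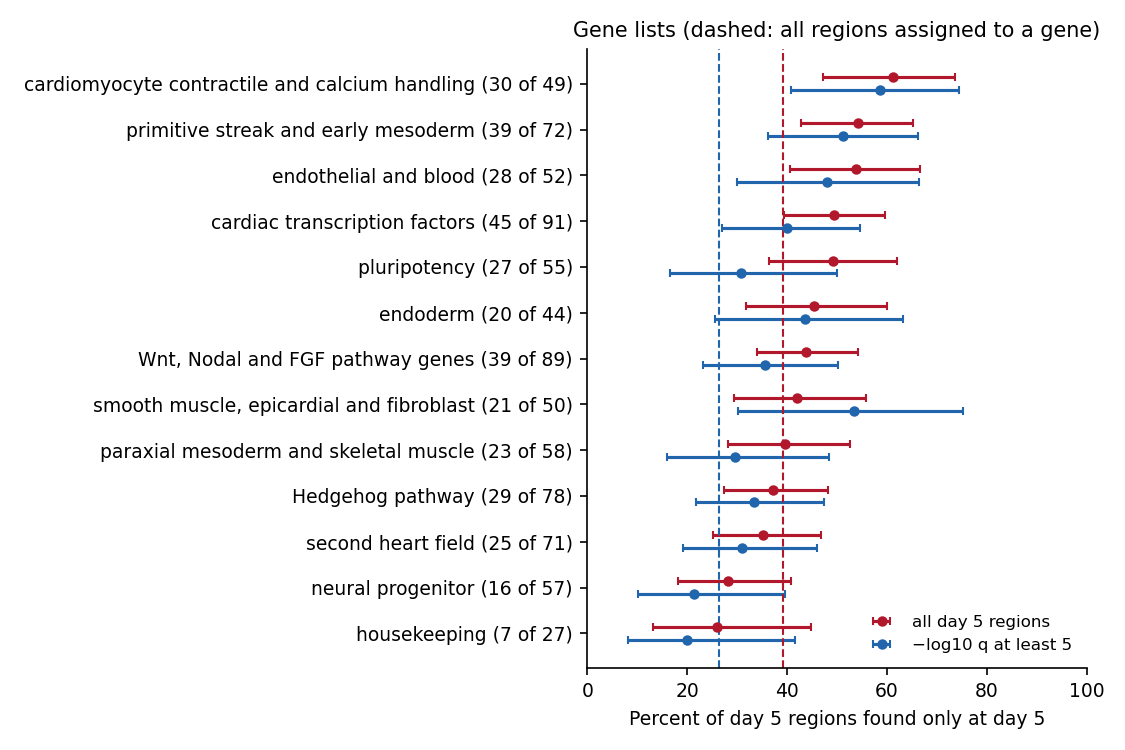
Percent of D5 regions found only at day 5 (x axis) at the genes of 13 lists (y axis, members of all D5 regions in brackets). Points are shares, bars Wilson 95% intervals, red for all D5 regions and blue for those with −log10 q of at least 5. Dashed lines mark 39.1% and 26.3%, the shares over all regions assigned to a gene. The contractile list lies at 61.2% and the housekeeping list at 25.9%.

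Genes of the primitive streak and early mesoderm held 39 members among 72 D5 regions (54.2%, interval 42.7 to 65.2; 52.2% outside skipped numbers), and 18 of the 24 genes with a D5 region had at least 1. The median day-5-only share over these genes was 58.6%. Gsc, a homeobox gene of the organizer, had 5 members among 6 regions, all between 19.2 and 89.9 kb from the gene, with fold 3.57 to 6.31. The Gsc region found in all 3 lists lies 0.131 kb from the gene. Eomes, a T-box factor of mesoderm and endoderm entry, had 4 members among 7 regions. The Eomes member outside skipped numbers, at 0.856 kb from the gene, had fold 6.12 and 20 reads and stops 0.221 kb short of a D7 region, while the other 3 members lie between skipped numbers. Mesp1, which starts cardiac mesoderm, had 1 member among 3 regions. That Mesp1 member lies 2.71 kb from the gene and was the strongest of its 3 regions, with fold 9.21 and 33 reads. The 2 Mesp1 regions with a D7 match had folds 6.24 and 4.69.

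Lhx1, a LIM homeobox gene of the organizer, had a member 67.6 kb away with fold 12.3 and 37 reads. Fgf8, a growth factor of the streak and of the cardiac fields, had 3 members among 5 regions, the strongest 3.02 kb from the gene (fold 6.66, 25 reads), and both regions at the gene itself were in all 3 lists. The Nodal co-receptor gene Tdgf1 had 2 of 2 regions only at day 5, with 14 and 17 reads, although both lie within 0.692 kb of a D7 region. Lefty2 and Cer1, which encode secreted Nodal antagonists, each had 1 region and each was a member, with fold 7.17 and 6.39. Nodal itself had 1 weak member (fold 4.55, 7 reads) among 2 regions, and Mixl1 1 of 2 (fold 3.28). T had no assigned D5 region, and Snai1 and Pdgfra had 4 and 3 regions with no member among them.

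Pluripotency genes held 27 members among 55 regions (49.1%, interval 36.4 to 61.9), and no member lay between skipped numbers. With assignment limited to 25 kb this list was at 31.6%, below the 35.0% of all regions so assigned. At Zfp42 all 4 D5 regions were members, including the promoter printed above. A second Zfp42 member 16.5 kb from the gene had fold 9.65 and 15 reads. Dppa4, a marker of early pluripotent cells, had 3 of 3 with folds 8.44, 4.08 and 5.73, and its neighbour Dppa2 had 2 of 2. Tbx3 had 6 members among 9 regions, the strongest of fold 8.43 and 16 reads. The core factors Nanog and Sox2 had 1 weak member each, among 3 and 4 regions, with fold 4.33 and 4.33. Lin28a and Sall4 had 4 regions each, all found in all 3 lists, and Pou5f1 had no assigned D5 region. Among regions with −log10 q of at least 5, pluripotency genes had 8 members of 26 (30.8%), beside 26.3% of all such regions assigned to a gene.

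Contractile and calcium-handling genes of cardiomyocytes held the highest share of the lists, 30 of 49 regions (61.2%, interval 47.2 to 73.6), again with none between skipped numbers. At −log10 q of at least 5 it was 17 of 29 (58.6%). The 3 genes with the most members are long, with Ryr2 at 554 kb, Slc8a1 at 365 kb and Ttn at 279 kb. Over all genes of at least 500 kb the share was 65.4%, and a part of gene length in the list's share was not tested. Ryr2, the calcium release channel of the sarcoplasmic reticulum, had 7 members among 10 regions, of which the 2 strongest, inside the gene, had 21 and 22 reads and the second of these a fold of 11.4. Ttn, the giant sarcomere spring protein, had 3 of 3, and the Ttn member inside the gene had fold 11.4 and 17 reads. The sodium-calcium exchanger gene Slc8a1 had 5 of 8, and Tnni1, the slow skeletal and embryonic cardiac troponin I, had 2 of 2 with 12 reads each. Nppb had 2 of 2, both within 0.405 kb of the gene. Of the 22 genes, Tnnt2, Myh6, Nppa, Tnni3, Tnnc1 and Mybpc3 had no assigned D5 region, and Myl4 and Myl3 had only regions found in all 3 lists.

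The 5 genes taken as markers of the labelled cell type, Nkx2-5, Isl1, Gata4, Tbx5 and Hand2, had 3 to 8 D5 regions each. In pooled bulk cells, fewer cells of a type and less accessibility per cell cannot be told apart. Cardiac transcription factor genes held 45 members among 91 regions (49.5%, interval 39.4 to 59.5), and 17 of 20 genes had at least 1. Tbx5, a T-box factor of the first heart field and atria, had 5 regions and all 5 were members. The widest Tbx5 member, inside the gene, spanned 790 bp with fold 6.94 and 16 reads, and the others had fold 4.26 to 5.81. Gata4 had 3 members among 5 regions (fold 4.11 to 4.85), while the 2 Gata4 regions in all 3 lists were stronger, with folds 7.34 and 7.40. Hand2 had 4 members among 8 and Nkx2-5 2 among 3 (fold 4.04 and 5.16). Isl1 had 1 member among 6 (fold 4.26, 6 reads), with the other 5 found again at day 7. The second heart field list had 25 of 71 (35.2%, interval 25.1 to 46.8), beside the background share of 39.1%. At −log10 q of at least 5 the list was at 31.0% (interval 19.1 to 46.0), beside 26.3% of all such regions assigned to a gene. Both intervals hold the background share. Within it Fgf10 had 4 of 8 and Eya1 3 of 4, whereas Wnt11 had none among 3.

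Endothelial and blood genes held 28 members among 52 regions (53.8%, interval 40.5 to 66.7). Flt1, a VEGF receptor, had 8 of 10, of which 6 lie inside the gene, and its strongest had fold 9.56 and 21 reads. The receptor gene Kdr had 4 of 5, while the Kdr region found in all 3 lists was the strongest there (fold 10.1, 26 reads). Tek had 5 of 6 and Tie1 2 of 2. The transcription factor genes Fli1 and Gata2 had 2 regions each and no member. Endoderm genes held 20 of 44 (45.5%), with 6 of 9 at the chemokine receptor gene Cxcr4 and 5 of 9 at the forkhead gene Foxa2, but none among 3 at Sox17. With assignment limited to 25 kb the endoderm list was at 27.6%, beside 35.0% of all regions so assigned.

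Genes of the Hedgehog pathway, the pathway in which GLI1 acts, held 29 of 78 (37.2%, interval 27.3 to 48.3). At −log10 q of at least 5 they held 33.3%, beside 26.3% of all such regions assigned to a gene. Gli3, which encodes the main GLI repressor, accounted for 11 of them among its 16 regions. The 4 strongest Gli3 regions found only at day 5 had folds 11.2, 11.1, 8.33 and 8.14 with 26, 22, 16 and 14 reads. The 2 highest lie 36.6 and 64.8 kb from the gene and the next 2 inside it. Gli2 had 3 of 10, and Shh, a ligand gene, 2 of 2 with fold 5.23 and 4.94. The receptor gene Ptch1 had 1 of 5, 36.5 kb away, with fold 4.35. Gli1 itself had 3 regions and Smo 2, all of them in all 3 lists.

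Among Wnt, Nodal and FGF genes 39 of 89 regions were members (43.8%, or 40.5% outside skipped numbers), and Axin2, a feedback inhibitor of Wnt signalling, had the most, 6 of 8. The strongest Axin2 member, 61.1 kb from the gene, had fold 16.1 and 54 reads but lies between skipped numbers with 2 others. Of the Axin2 members outside, the strongest had fold 7.39 and 24 reads. Smooth muscle, epicardial and fibroblast genes had 21 of 50 (42.0%, or 39.1% outside skipped numbers), with a Tbx18 member of fold 12.1 and 26 reads 84.2 kb from the gene. Paraxial mesoderm and skeletal muscle genes had 23 of 58 (39.7%), and 29.5% with assignment limited to 25 kb, beside 35.0% of all regions so assigned. Neural progenitor genes had 16 of 57 (28.1%, interval 18.1 to 40.8). Pax6 had 4 of those 16, and Sox1 had no member among 4 regions. All 4 regions of Nkx2-2, a ventral neural gene downstream of Hedgehog, were found again in the GLI1 list alone. Housekeeping genes had 7 of 27 (25.9%), or 4 of 24 (16.7%) outside skipped numbers.

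**Figure D2:**
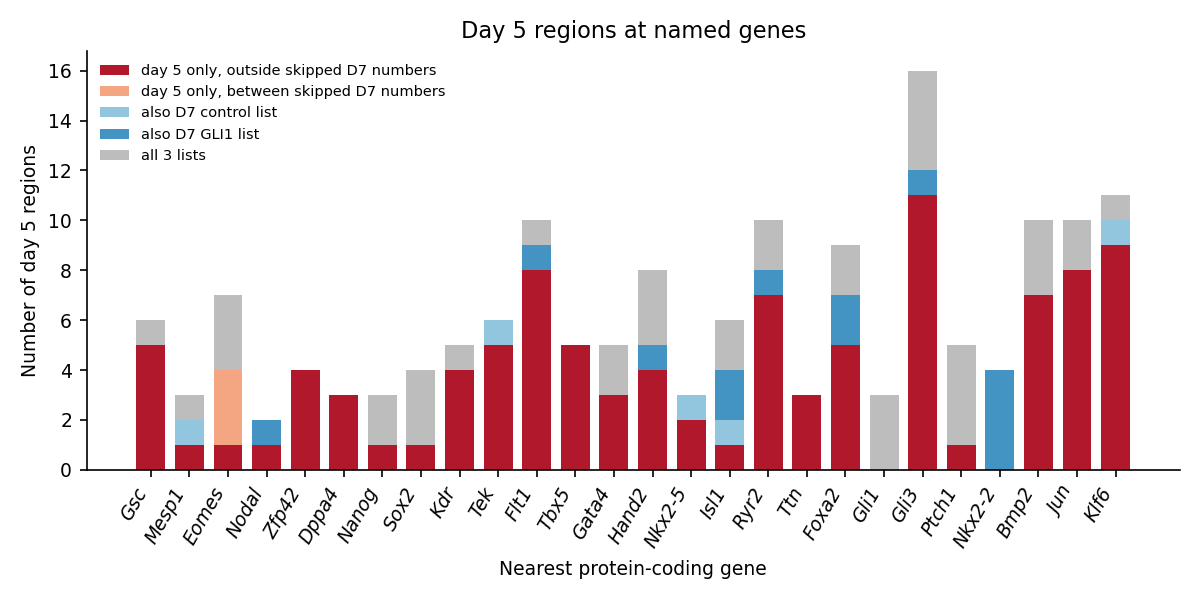
Number of D5 regions (y axis) assigned to each of 26 genes (x axis), stacked by class: found only at day 5 outside or between skipped D7 peak numbers, shared with 1 D7 list, or in all 3 lists. At Zfp42, Dppa4, Tbx5 and Ttn every region was found only at day 5, and at Gli1 and Nkx2-2 none was.

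Over all genes, those with the most members were very long genes. Macrod2 had 31 members among 39 regions, the teneurin gene Tenm2 23 among 31, the synaptic scaffold gene Dlg2 22 among 29 and Auts2 20 among 28. Pde4d had 19 among 34, Sox5 19 among 29, Nrxn3 19 among 26 and Cntn5 17 among 19. Tenm4 had 16 among 27, Robo2 16 among 21, Gpc5 16 among 23 and Syt1 16 among 20. The 212 genes of at least 500 kb that had a D5 region held 1489 members among 2277 regions (65.4%). None of the members at Macrod2, Tenm2, Dlg2 or Auts2 lay between skipped numbers.

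Among genes of at most 100 kb, Lrig3 had 9 members among 13 regions and Klf6, an immediate early zinc finger gene, 9 among 11. Tle3, a Groucho corepressor, had 8 among 14, and the AP-1 gene Jun 8 among 10. Bmp2, a ligand that drives cardiac mesoderm, had 7 among 10, with fold up to 10.6 and 21 reads. Tmem178 had 7 among 8, Cxadr and Hapln1 7 among 11 each, Klf13 7 among 13 and Tcte2 7 among 12. Csf2ra and Sfi1 had 8 of 8, but every one of those lies between skipped numbers.

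Genes with at least 10 D5 regions ran from nearly all to no members. Among the highest shares were those at Agbl1 (13 of 14), the ephrin gene Efna5 (10 of 11), Cpa6 (9 of 10) and Cntn5 (17 of 19). The lowest were at Tex14 (0 of 11), Cuedc1 (0 of 10), Rere (1 of 10), and Cxxc5 and Pknox2 (2 of 15 each). Tex14 had 11 regions in all 3 lists.

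Position relative to genes was not used by the rule. Only 5.66% of members (949, interval 5.32 to 6.02) had their summit within 1 kb of either end of a protein-coding gene, against 61.5% of D5 regions in all 3 lists. For regions shared with D7 control alone it was 8.92% and with GLI1 alone 15.5%. Outside skipped numbers the share of members was 3.87%, and between them it was 26.8%. Members lay inside a gene interval in 42.8% of cases and over 100 kb from any gene in 21.6%, against 59.7% and 2.69% for regions in all 3 lists. The annotation used here does not separate exons from introns.

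Read the other way, 7.62% of D5 regions within 1 kb of a gene end were found only at day 5 (4.95% outside skipped numbers), 41.5% of those at 1 to 10 kb, 63.5% at 10 to 100 kb and 76.5% farther away. The same shares were also taken within ranges of −log10 q. In the range of 10 to 20 they were 3.69%, 22.5%, 47.3% and 64.7% in order of distance. The order by distance was the same in each of the 5 ranges plotted for regions outside skipped numbers.

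**Figure D3:**
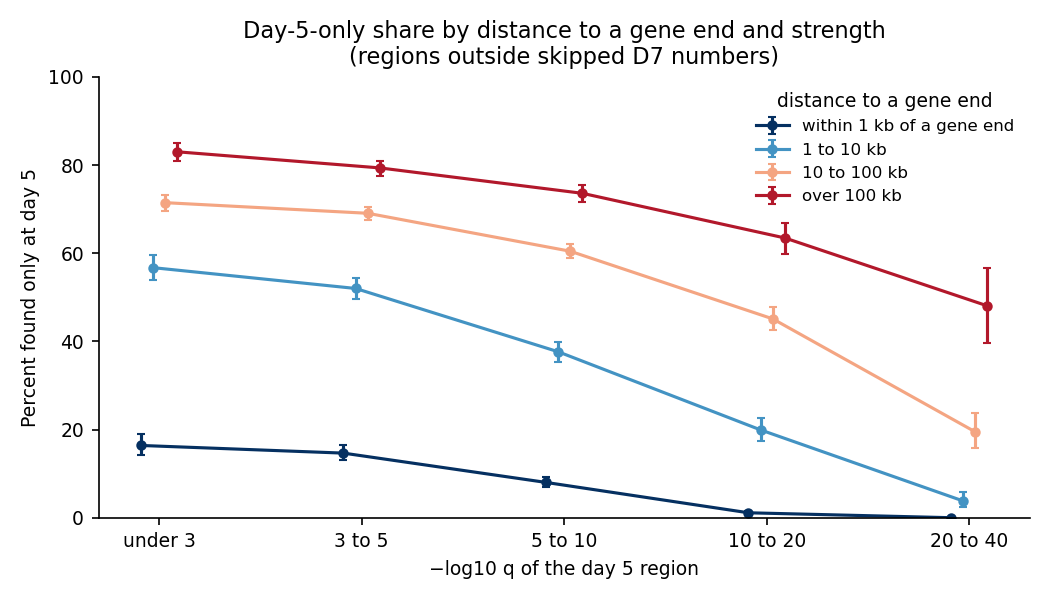
Percent of D5 regions found only at day 5 (y axis) by −log10 q of the region (x axis) and by distance of its summit to the nearest end of a protein-coding gene (lines), for regions outside skipped D7 peak numbers. Bars are Wilson 95% intervals. Within 1 kb of a gene end the share was 16.4% or lower in every range.

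The members were weak regions on the whole, and strength moved with membership. Their median fold was 5.09, their median −log10 q 4.22, their median width 176 bp and their median summit 7 reads, and 97.1% had a single summit. Regions in all 3 lists had medians of 7.66, 11.4, 426 bp and 18 reads, and 68.5% had a single summit. Of D5 regions with −log10 q under 3, 63.7% were found only at day 5, and the share was 60.4% from 3 to 5, 48.7% from 5 to 10, 1523 of 6093 from 10 to 20, 6.50% from 20 to 40 and 5.15% at 40 and over. Counting only regions of −log10 q of at least 5, 6742 of 22007 (30.6%) were members. These measures come from the list that defined the members, so they are a description.

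**Figure D4:**
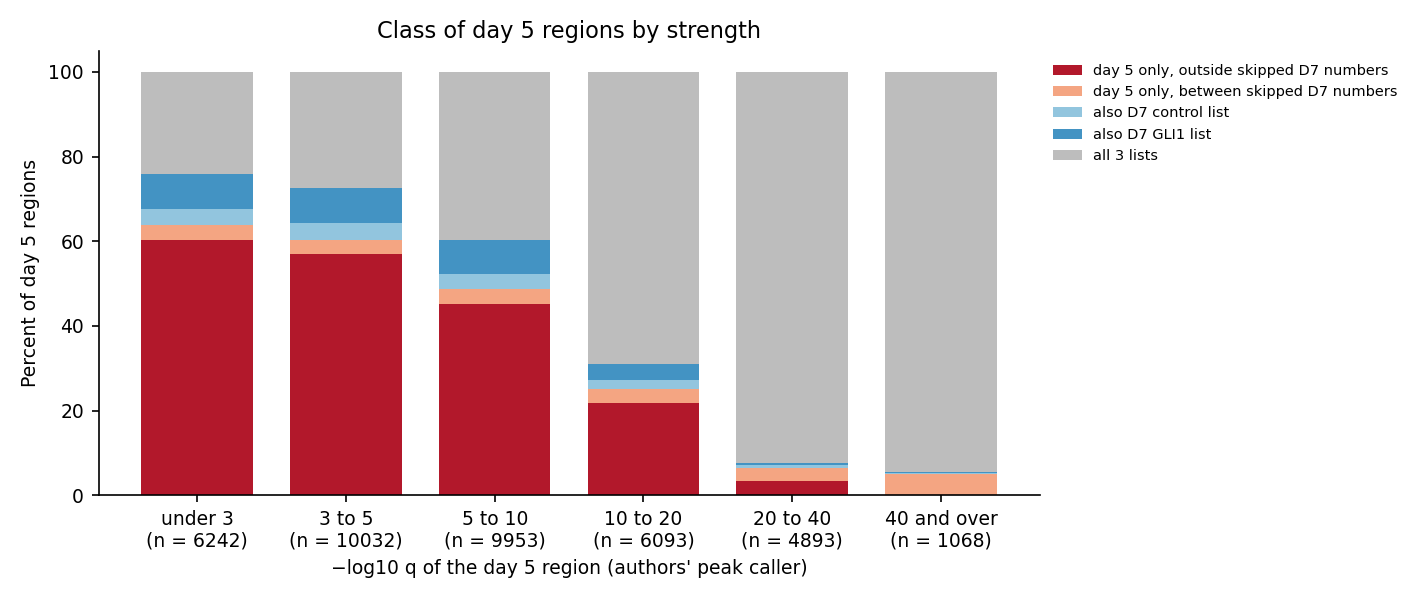
Percent of D5 regions (y axis) in each class by −log10 q of the region (x axis, number of regions in brackets). Regions found only at day 5 outside skipped numbers make up most of the 2 weakest ranges, and in the strongest range 54 of 55 members lie between skipped numbers.

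The strongest members lay almost wholly between skipped D7 numbers. The 20 members with the highest −log10 q all did, as did 95 of the first 100 and 310 of the first 1000. Among members the share between skipped numbers was 5.35% at −log10 q under 3, 12.9% from 10 to 20, 49.7% from 20 to 40 and 98.2% above. D5 regions between skipped numbers of both D7 lists are members by construction, so leaving them out can only lower the day-5-only share. With regions between skipped numbers left out of both sides, 22.5% of D5 regions from 10 to 20 and 3.38% from 20 to 40 were found only at day 5. At 40 and over, 1 of 1014 was.

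**Figure D5:**
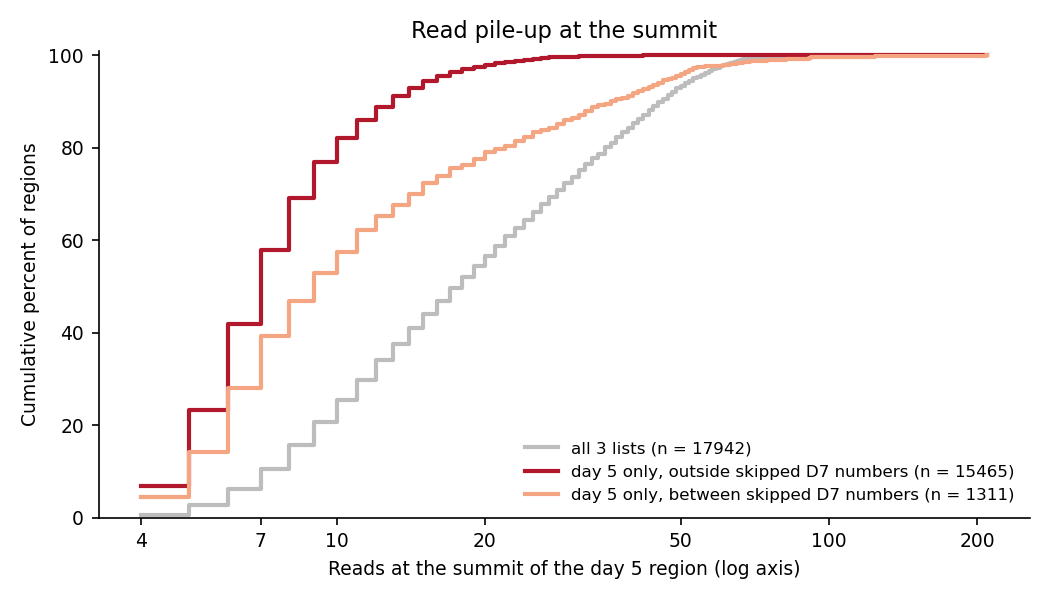
Cumulative percent of regions (y axis) by reads at the summit (x axis, log scale) for members outside and between skipped D7 numbers and for D5 regions in all 3 lists. Medians are 7, 9 and 18 reads.

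That single region, the strongest member outside skipped numbers, is at chr5:83351630-83352007 inside Tecrl, a gene of calcium handling in heart muscle whose mutation causes arrhythmia. It had fold 18.7 and 42 reads over a background of 1.30, and the nearest D7 region is 2.94 kb away. The next were inside Tmem135 (fold 14.7, 44 reads) and 16.9 kb from the amino acid transporter gene Slc38a11 (fold 17.5, 37 reads). A member 98.2 kb from Cdkn3 spanned 1047 bp and had the most reads outside skipped numbers, 54. Members inside Gyg, Plekha7 and Pebp4 and those nearest to Spcs3, Hmgn3, Ddx1 and Slc4a4 had 30 to 38 reads. A member 261 kb from Irx2, in the gene-poor interval beside this Iroquois homeobox gene, had fold 10.6 and 44 reads. Those nearest to Vstm2b (454 kb) and Pabpc4l (1215 kb) lie in deserts without genes, as does one whose nearest gene is Dsc3. All 15 lie at least 1.70 kb from a D7 region.

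Between skipped numbers the 5 strongest members had 84 to 124 reads and fold 26.9 to 37.2. The first lies 282 kb from Pex2 (chr3:5860541-5860840, 124 reads), the second 171 kb from Samd9l and the third 25.2 kb from Col19a1. The fourth lies inside the overlapping genes Cmss1 and Filip1l and the fifth inside Lars2. Of the 5 widest members 4 lie between skipped numbers. A pair of them 106 and 102 kb from Esp38 (chr17:39843095-39846336 and chr17:39847523-39848801) had 208 and 209 reads but a local background of 88.4 and 80.1, so their folds were 2.34 and 2.59. Wide members were also at Cdv3 and Naif1, and inside Dlgap1, which is the widest outside skipped numbers (1214 bp, fold 7.18, 23 reads).

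In order of position along the chromosome, members formed 7048 runs with no other D5 region between them, and 3426 runs held a single member. At least 5 members were in 847 runs, and these hold 36.1% of all members. Members are 43.8% of D5 regions, so some runs are bound to occur, and run lengths were not compared with a random order. The longest run, of 35, spans a cluster of zinc finger genes on chromosome 4 (Zfp980, Rex2, Zfp978 and others) and lies wholly between skipped numbers, as does a run of 20 at defensin genes on chromosome 8. The runs of 21 to 23 hold none between skipped numbers. One covers 1382 kb at the glutamate receptor gene Grid1 with a median fold of 4.92, one a gene-poor stretch of chromosome 12 and one the stretch around the cadherin gene Cdh9. By chromosome the share of D5 regions found only at day 5 ran from 33.1% on chromosome 19 and 33.7% on chromosome 11 to 50.6% on chromosome 14 and 50.9% on chromosome 3.

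Members lie outside D7 regions by rule, and their distances to D7 regions were not compared with those of other positions. The median distance to the nearest D7 region was 19.5 kb. Of the members, 992 (5.91%) were within 1 kb of one, and 1717 (10.2%) were over 100 kb away. Outside skipped numbers the median was 18.3 kb, and 1422 members were over 100 kb away. At the edge of the rule, 110 members had a D7 region within 50 bases, with a median fold of 4.97 and 7 reads. In 155 D5 regions that just missed membership, with 1 to 50 bases of overlap, the median fold was 4.57 and the median reads also 7.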

How the data were processed

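The members and gene lists were chosen with earlier results of these data known. Per the submitters' processing notes, reads were handled with Bowtie2 2.3.2, SAMtools 1.5, Picard and MACS2 2.1.1 on mm10; settings are not given in the sources used here. The authors deposited 1 pooled peak list per group: the D7 control list was matched to its group by its name, which is an inference. Per peak, the deposited files give a fold enrichment (ratio), −log10 p, −log10 q, a score of 10 times that −log10 q, and a summit offset; a merged region takes the values of its peak with the highest −log10 q. Reads at the summit were solved from the deposited fold and −log10 p: a whole number fitted all 48177 D5 peaks within 0.001, and 254 had more than 1 solution. Library read totals were not used, so depth was not measured, and the caller's backgrounds need not follow depth alone. Merging, overlap and read recovery were tested on simulated data. Genes are 20665 protein-coding RefSeq intervals; of 243 listed genes, 238 were on chromosomes 1 to 19. Python 3.11.15, pandas 2.3.3 and scipy 1.17.1 were used. Named genes were 16 fixed genes, the leaders by count, share, strength and run length, and per list the 4 with most members and the 2 with most D5 regions but no member; others in the text were chosen after their values were seen. Alternatives covered thresholds, overlap, distance, list length, merging, skipped numbers and gene assignment. Some genes that the rule names are not reported here.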

Additional observations from a re-analysis of the deposited data

Results flagged for a closer look

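Chromosome X was outside the rule. By the same overlap, 471 of 1155 merged D5 regions there (40.8%, Wilson 95% interval 38.0 to 43.6) had no D7 region, with a median fold of 5.09. This signal lies in data that no comparison of the report used.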

How the results depend on the processing

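The number of members, 16776 as reported, was 6742 when D5 peaks needed a −log10 q of at least 5. The day-5-only share of 43.8% was then 30.6%. It was 46.5% with that threshold on D7 peaks, 45.0% when sharing needed 50% of the length, 42.1% when a D7 region within 500 bases also counted, 41.9% without regions between skipped numbers and 37.1% for unmerged peaks. The share near a gene end, 5.66%, was 7.05% and 6.23% with the D5 and D7 thresholds, 5.27% within 500 bases, 3.87% without regions between skipped numbers, 6.40% unmerged and 13.1% at 5 kb. The share between skipped numbers, 7.81%, was 11.2% with the D5 threshold and 8.86% unmerged. Leaving out regions between skipped numbers of both D7 lists can only lower the day-5-only share. The cause of the other shifts was not tested. The number of lists above the share of all assigned regions lay between 6 (assignment within 25 kb) and 11, beside 9 as reported. Under assignment within 25 kb the pluripotency list was at 31.6% and the endoderm list at 27.6%, beside 35.0% of all assigned regions. Of 171 named genes, 97 changed their count by over 1.5 times with the D5 threshold. Equal list lengths moved none of these summaries beyond counting error. The merged lists were already close in length, with 38281 regions at D5, 37973 in D7 control and 42192 in D7 GLI1. That setting therefore changed little and cannot speak to the difference in background reads. No paired analysis was possible because the libraries of a group are pooled in 1 list, and no library could be left out. The median member rests on 7 reads at D5, and library depth was not tested.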
